A study of Mus musculus with 12 samples.

Results

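The genes described here are 45 genes of mitosis and the G2/M transition, taken by name out of the 54146 genes of the expression table: CDK1 and its cyclins, the mitotic kinases, the spindle checkpoint, the anaphase-promoting complex, the chromosomal passenger complex, the kinetochore, kinesin motors, spindle proteins, cytokinesis proteins, topoisomerase II alpha and the marker gene Mki67. Each of the 45 names matched 1 row. RNA was measured in 12 libraries of D2A1, a mouse mammary carcinoma line that carried a doxycycline-inducible histone H2B-GFP and had been labelled with CellVue Claret, a membrane dye diluted at each division, before tail vein injection. GFP-positive cells were sorted from the lungs into dormant tumour cells, which had kept the dye, and growing tumour cells, which had lost it. The 4 groups of 3 libraries were dormant and growing tumour cells from hosts labelled WT and dormant and growing tumour cells from hosts labelled Tgfbr2 KO, here called KO. By the study's methods, the KO hosts were female mice with floxed Tgfbr2, the type II TGF-beta receptor, and Cre under the Lysozyme 2 promoter (LysM-Cre), so that the receptor is lost from host myeloid cells while the tumour cells keep theirs, and the WT hosts were floxed mice without deletion. The tumour cells in both hosts were the same line. The question of the design was how dormant and proliferating tumour cells differ in vivo.

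Mitosis is started by CDK1 bound to cyclin A or cyclin B, carried on by the Aurora and Polo-like kinases, and ended when the anaphase-promoting complex marks cyclin B and securin for destruction. Most of these genes are transcribed in a wave that begins in late S phase and peaks in G2/M. The wave is switched on by B-MYB, FOXM1 and NF-Y and is held down by the DREAM complex in cells out of the cycle. Cells that have left the cycle therefore hold little of these transcripts, which is why Mki67 and Top2a are used as proliferation markers.

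The promoters of this family carry known elements, and they are shown because the fitted difference of all 45 members lay below 0 in KO hosts. RefSeq promoter windows on GRCm38.p6, of 300 bases with 250 before and 50 after the start, were found for 38 of the 45 genes (40 windows). Ccna2, Foxm1, Aurkb, Incenp, Spc24, Kif20a and Tpx2 were without a window. The cell cycle genes homology region (CHR, searched as TTTGAA or TTCGAA on both strands) was found in 32 of 40 windows (80.0%), against 13.8% of 11047 windows of tested genes and 19.2% of all 32851 windows. CCAAT, the letters of the NF-Y box, was found in 32 of 40 windows (80.0%) on either strand, against 37.7% of the windows of tested genes, and 23 of 40 windows (57.5%) held 2 or more copies, against 13.9%. Both a CHR and at least 2 CCAAT were held by 21 of 40 windows (52.5%), against 2.15%. The E2F type letters GCGGGAA were found in 0 of 40 windows, against 8.17%. The 250 bases before the start are printed for 5 genes that fell in at least 1 host and held the most CCAAT beside a CHR, in lower case with the CHR and CCAAT letters of either strand in capitals, reading towards the gene. They are Top2a (chr11:99024190-99024439, minus strand), Ube2c (chr2:164769679-164769928, plus strand), Hmmr (chr11:40733438-40733687, minus strand), Cdca8 (chr4:124936918-124937167, minus strand) and Oip5 (chr2:119618506-119618755, minus strand).
Top2a: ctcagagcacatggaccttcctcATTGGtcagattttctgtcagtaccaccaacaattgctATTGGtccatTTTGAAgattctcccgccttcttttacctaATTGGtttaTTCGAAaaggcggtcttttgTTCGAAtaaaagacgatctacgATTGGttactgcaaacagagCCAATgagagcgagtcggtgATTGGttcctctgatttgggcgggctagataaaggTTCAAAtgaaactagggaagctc
Ube2c: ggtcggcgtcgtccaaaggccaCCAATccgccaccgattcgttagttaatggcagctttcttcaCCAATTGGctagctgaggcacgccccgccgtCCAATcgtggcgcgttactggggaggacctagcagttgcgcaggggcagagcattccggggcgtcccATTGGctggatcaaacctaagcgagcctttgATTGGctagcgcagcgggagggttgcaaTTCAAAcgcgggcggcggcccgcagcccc
Hmmr: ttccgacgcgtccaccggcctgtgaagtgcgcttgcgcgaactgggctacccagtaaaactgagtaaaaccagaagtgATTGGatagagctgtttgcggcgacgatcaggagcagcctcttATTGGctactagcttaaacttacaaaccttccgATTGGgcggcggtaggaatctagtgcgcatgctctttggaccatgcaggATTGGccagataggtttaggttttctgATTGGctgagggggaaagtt
Cdca8: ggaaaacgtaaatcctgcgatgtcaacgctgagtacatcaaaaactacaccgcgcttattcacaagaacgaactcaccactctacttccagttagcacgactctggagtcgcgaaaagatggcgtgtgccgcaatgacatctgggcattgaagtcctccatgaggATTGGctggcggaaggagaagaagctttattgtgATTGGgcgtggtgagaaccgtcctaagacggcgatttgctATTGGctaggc
Oip5: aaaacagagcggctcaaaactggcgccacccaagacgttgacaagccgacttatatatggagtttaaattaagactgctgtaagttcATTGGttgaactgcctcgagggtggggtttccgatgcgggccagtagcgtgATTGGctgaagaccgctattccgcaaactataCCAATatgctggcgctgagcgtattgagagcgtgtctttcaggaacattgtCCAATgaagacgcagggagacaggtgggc
Top2a held 6 CCAAT and 4 CHR matches in these bases, and Ube2c held 6 CCAAT, of which 2 overlap each other on opposite strands, and 1 CHR match 29 bases before the start. In Hmmr, Cdca8 and Oip5 the CHR match lay after the start and is not in the printed stretch. A match is a description of letters and not a site.

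The libraries differed in more than these genes. The values are TPM, a relative level with the same total in each library, so the depth is unknown and no counting interval was given. All WT libraries were of library batch 1 and all KO libraries of batch 2, so host and batch cannot be told apart, while dormant and growing libraries of one host share a batch. Dormant KO libraries held 44467 to 46606 TPM summed over 17 markers of lung epithelium and stroma, against 1799 to 1803 TPM across the growing KO and 169.7 to 394.7 TPM across the dormant WT libraries. They also held 50831 to 56264 TPM of 5 erythroid genes, against 6881 to 7791 TPM across the growing KO libraries, and 7429 to 7638 TPM of 18 leukocyte markers, against 243.2 to 279.5 TPM. Leukocyte markers summed to 1401 to 2346 TPM across the dormant WT and 94.9 to 169.5 TPM across the growing WT libraries. Of the carcinoma markers, Krt8, Krt18 and Vim were detected in every library, whereas Krt19 and Krt7 were at 252.04 to 418.3 and 29.6 to 61.46 TPM across the dormant KO libraries, at most 14.16 and 2.18 TPM across the growing libraries and at most 0.59 and 0 TPM across the dormant WT libraries. Dormant WT libraries listed more genes at 0 than any other group, 24.5% to 36.2% of the 13002 tested genes against 8.78% to 12.5% in the other 9 libraries, and 1 of 14 widely expressed genes was at 0 in dormant WT 3, so a gene without reads is called listed at 0. The part of these differences in what follows was not tested. Tgfbr2 itself was at 0.14 to 11.09 TPM across the dormant WT and 2.19 to 11.48 TPM across the dormant KO libraries and under 2 TPM in every growing library, which does not check the labels, since the deletion is in host cells.

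Summed over the 45 genes, growing tumour cells held 5241 ± 132.7 TPM (SD, n = 3) in WT hosts and 6177 ± 144.3 TPM (SD, n = 3) in KO hosts. Dormant KO libraries held 1177, 1353 and 1445 TPM, which was 4.66-fold less than growing KO libraries on the means, with no overlap. Dormant WT libraries held 1078, 1727 and 3290 TPM, 2.58-fold less on the means, also with no overlap. The 3 dormant WT libraries thus stood 3.05-fold apart from lowest to highest, whereas the dormant KO libraries stood 1.23-fold apart. Taken per 100 TPM of 14 widely expressed genes, whose own sum was 1.44-fold lower in dormant than in growing KO libraries, the sum of the 45 genes was 20.8 ± 1.46 in growing KO, 6.39 ± 0.618 in dormant KO and 18.8 ± 1.05 in growing WT libraries (SD, n = 3 each). On that scale the dormant WT libraries were at 4.03, 6.29 and 13.2. In bulk RNA, fewer cells in mitosis, less mitotic RNA per cell and a smaller share of tumour RNA cannot be told apart. Widely expressed genes are not particular to tumour cells, so the scaling to them does not measure that share.

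**Figure D1:**
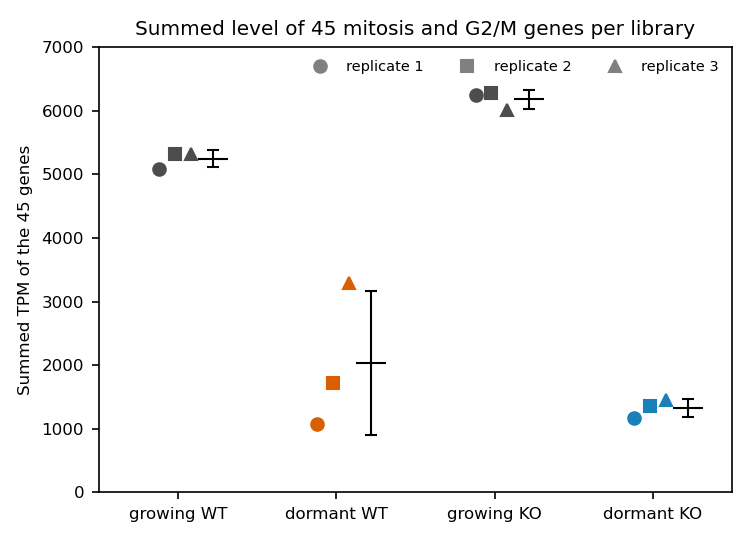
Summed TPM of the 45 mitosis and G2/M genes in each of 12 libraries (points, 1 shape per replicate number) with the group mean and SD (bars). Growing libraries lie between 5088 and 6274 TPM, dormant KO libraries between 1177 and 1445 TPM, and dormant WT libraries are spread from 1078 to 3290 TPM.

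In KO hosts the 45 genes were low in dormant tumour cells as a body. The fitted difference between dormant and growing KO libraries was below 0 in 45 of 45 genes, with a median of -2.38 on the log2(TPM + 1) scale against -0.32 over all tested genes. In 39 of 45 genes every dormant KO library lay below every growing KO library, against 28.3% of all tested genes, the exceptions being Foxm1, Bub1b, Ttk, Incenp, Oip5 and Kif11. The mean dormant level was between 0.764% (Aurkb) and 65.5% (Cks2) of the mean growing level, with a median of 18.3%. A gene was called where the limma fit gave a Benjamini-Hochberg adjusted p of at most 0.05 and a difference of at least 1. By that rule 16 of 45 genes were lower and 0 higher, against 9.48% of all genes called lower and 8.31% called higher. The fit pools the spread of all 4 groups, and the uneven dormant WT libraries enter it: fitted on the 6 KO libraries alone, 33 genes were lower, against 14.4% of all tested genes. The count was 9 without dormant KO 1 or growing KO 3 (7.29% and 6.77% of all tested genes) and 10 without dormant KO 3 or growing KO 2 (7.4% and 6.73%). Cdk1, Cdca8, Cenpa, Kif22, Kif2c, Pttg1, Top2a and Ube2c were called whichever of the 6 libraries was left out. Kif2c, and Aurkb among the 16, entered the test through their growing libraries.

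In WT hosts the same genes were low in dormant tumour cells on average but not in each library. The fitted difference was below 0 in 44 of 45 genes, Top2a being the exception, with a median of -1.92 against -0.35 over all tested genes. The mean dormant WT level had a median of 36.8% of the mean growing level and reached 195.8% (Mki67, through dormant WT 3). It lay above the growing mean in 6 genes, Kif11, Kif23, Kif4, Hmmr, Top2a and Mki67, of which only Top2a was also above 0 on the log scale. In 22 of 45 genes every dormant WT library lay below every growing WT library, against 19.4% of all tested genes. By the limma fit 8 of 45 genes were lower and 0 higher, against 5.67% of all genes called lower and 1.85% called higher. The 8 were Cdca3, Bub1, Ube2c, Pttg1, Cenpa, Oip5, Kif22 and Kif2c. Without dormant WT 3 the count was 26, against 7.92% of all tested genes, and without dormant WT 2 it was 13, against 6.37%. It was 5 without growing WT 1 (2.85% of all tested genes) and 3 without growing WT 2 or growing WT 3 (2.64% and 2.55%). Bub1, Cenpa and Oip5 were called whichever of the 6 libraries was left out. Fitted on the 6 WT libraries alone, 4 genes were lower, against 5.78% of all tested genes. Called in both hosts by the fit of all 12 libraries were 6 genes, Bub1, Cenpa, Kif22, Kif2c, Pttg1 and Ube2c, against 1.42% of all tested genes. Of these, Kif2c entered the test through its growing libraries.

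Each dormant WT library had its own set of genes at or near 0. By the study's methods each library was made from a small aliquot of sorted cells, whose part in these zeros was not tested. Dormant WT 1 had 43 genes below the range of the 3 growing WT libraries and 2 above it, dormant WT 2 had 38 below, 3 within and 4 above, and dormant WT 3 had 27 below, 6 within and 12 above. Over all tested genes 39.0%, 51.0% and 45.9% lay below that range and 35.4%, 27.1% and 30.6% above it in the same 3 libraries. The median gene stood at 8.68% of its growing WT mean in dormant WT 1, at 0.995% in dormant WT 2 and 67.7% in dormant WT 3, where the median over all tested genes was 79.5%, 30.1% and 57.2%. Dormant WT 1 listed 13 of the 45 genes at 0, dormant WT 2 listed 19 and dormant WT 3 listed 5. Among genes at 10 TPM or more in every growing WT library, 10, 15 and 2 of 37 mitosis genes were listed at 0 in dormant WT 1, 2 and 3 (27%, 40.5% and 5.41%), against 4.91%, 13.6% and 10.3% of all 4523 such genes. Under 1 TPM in all 3 dormant WT libraries were 5 genes, Foxm1, Bub1, Ttk, Oip5 and Kif2c, whereas 28 genes were under 1 TPM in 1 or 2 of them and 12 in none. Of the 45 genes, 30 had their highest dormant WT level in dormant WT 3, 11 in dormant WT 2 and 3 in dormant WT 1, Bub1 being at 0 in each. The dormant KO libraries were alike in this: 41, 43 and 43 genes lay below the growing KO range and 0 above it, and 32 genes were at 1 TPM or more in all 3. Over all tested genes 43.8%, 40.4% and 42.9% lay below that range and 27.8%, 30.8% and 27.9% above it. The SD of log2(TPM + 1) between the 3 libraries had a median over the 45 genes of 2.44 in dormant WT and 0.652 in dormant KO, against 0.999 and 0.57 over all tested genes.

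**Figure D2:**
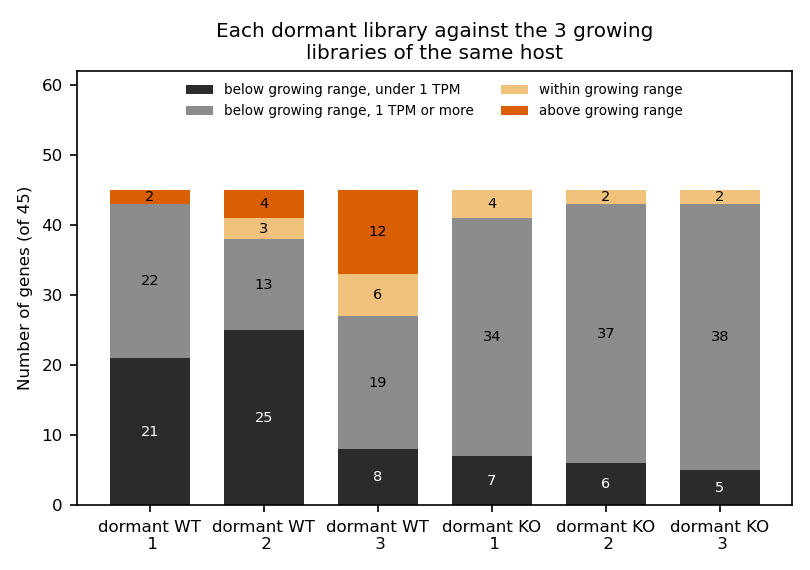
Number of the 45 genes (stacked, of 45) that lie below, within or above the range of the 3 growing libraries of the same host, in each dormant library, with those below split at 1 TPM. Dormant WT 3 has 12 genes above the range, dormant WT 2 has 25 below it at under 1 TPM, and in the dormant KO libraries 34 to 38 genes are below it but detected at 1 TPM or more.

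**Figure D3:**
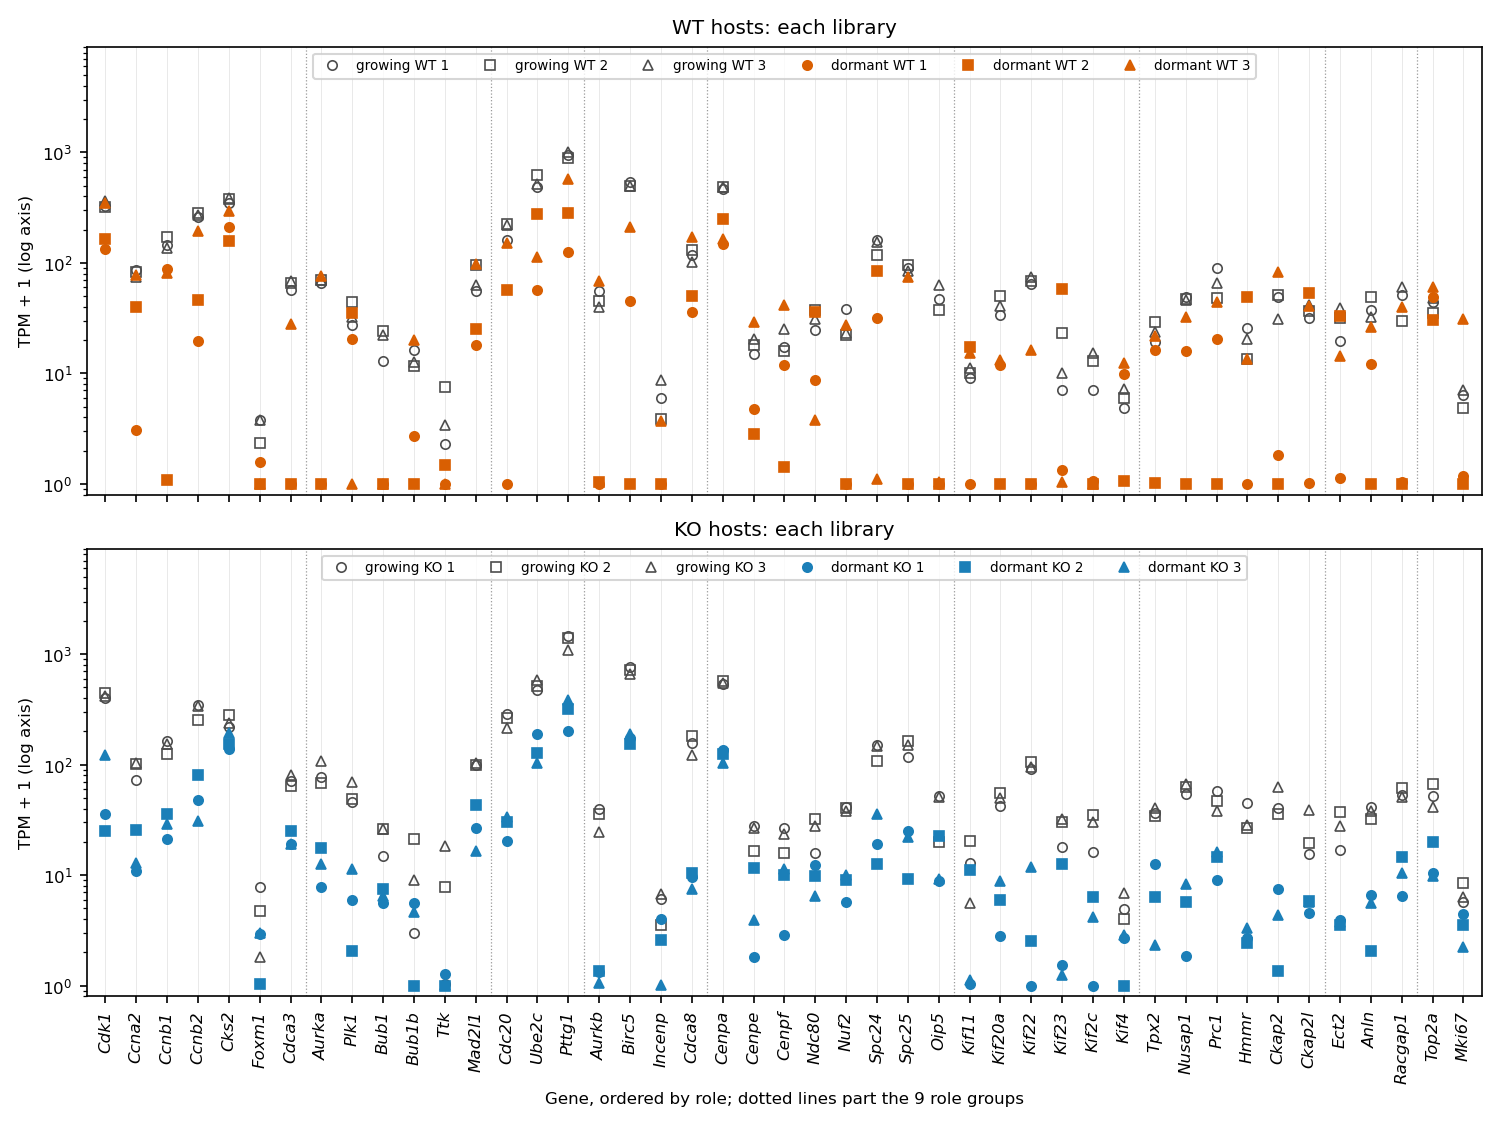
TPM + 1 on a log axis of each of the 45 genes in each library, growing as open and dormant as filled symbols, WT hosts above and KO hosts below, with dotted lines between the 9 role groups. Filled symbols in WT hosts run from the bottom of the axis to above the growing libraries within single genes, whereas in KO hosts they lie together below the growing libraries in most genes.

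CDK1 and its regulators come first, since CDK1 with a B cyclin is the kinase that starts mitosis. Coordinates are those of GENCODE M21 on GRCm38, the mm10 build. Cdk1 (chr10:69335146-69352938, minus strand) was at 326.38, 320.51 and 361.68 TPM across the growing WT and 132.02, 162.09 and 350.20 TPM across the dormant WT libraries. Dormant WT 3 was thus within the growing range, and the difference of -0.77 ± 0.508 (SE) was not called (limma adjusted p = 0.387). In KO hosts Cdk1 was at 397.09, 441.22 and 417.29 TPM across the growing and 34.84, 24.31 and 120.53 TPM across the dormant libraries. The groups did not overlap, and Cdk1 fell by 3.13 ± 0.508 (SE) on the log2(TPM + 1) scale (limma adjusted p = 0.00117). Ccnb1, cyclin B1 (chr13:100778650-100786570, minus strand), was at 143.05, 172.15 and 134.50 TPM across the growing WT and 86.26, 0.09 and 79.27 TPM across the dormant WT libraries, so that dormant WT 2 was nearly without it. Its KO levels were 161.87, 123.07 and 152.69 TPM across the growing and 20.13, 35.06 and 27.91 TPM across the dormant libraries. These groups did not overlap either, but the pooled fit gave -2.38 ± 1.28 (SE), which was not called (limma adjusted p = 0.235), though it was with array weights or only the groups compared. Cdca3, which helps to destroy the CDK1 inhibitor WEE1 (chr6:124829547-124833701, plus strand), was listed at 0 in dormant WT 1 and 2 and stood at 27.05 TPM in dormant WT 3, against 55.30, 64.59 and 67.13 TPM across the growing WT libraries. It fell by 4.38 ± 1.01 (SE) (limma adjusted p = 0.0226), a size that depends on the pseudocount (-6.59 with 0.1 and -2.85 with 5), and the call was lost without any 1 of the growing WT libraries, with no filter and with only the groups compared. In KO hosts Cdca3 was at 17.99, 24.30 and 18.15 TPM across the dormant and 70.33, 63.34 and 79.69 TPM across the growing libraries, a difference of -1.78 ± 1.01 (SE) that was not called (limma adjusted p = 0.265).

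Of the other 4 genes of this group, Ccnb2, cyclin B2, fell by 2.65 ± 0.653 (SE) in KO hosts (limma adjusted p = 0.0139). That call was lost without dormant KO 3 and with median-ratio scaling, with adjusted p up to 0.0596. In WT hosts Ccnb2 stood at 18.76, 45.54 and 192.98 TPM in the dormant libraries, all below the 261.17 to 281.43 TPM of the growing ones, with -2.27 ± 0.653 (SE) just outside the threshold (limma adjusted p = 0.0545). Ccna2, cyclin A2, stood at 2.06, 39.03 and 76.63 TPM in dormant WT 1, 2 and 3, the third of which lay within the growing range of 72.91 to 85.24 TPM. In KO hosts it stood at 9.97 to 24.73 TPM across the dormant against 71.26 to 102.92 TPM across the growing KO libraries. Its exons overlap those of Exosc9. Cks2, the small subunit that docks on CDK1, kept the most in dormant KO libraries, 65.5% of the growing mean, and 59.5% in WT hosts. Foxm1, the transcription factor of the wave, was low throughout, at 0.82 to 6.78 TPM across the growing and 0 to 1.99 TPM across the dormant libraries, so that little can be read from it.

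The mitotic kinases and the spindle checkpoint, which holds anaphase until every chromosome is attached, are led by Bub1. Bub1, a checkpoint kinase at the kinetochore (chr2:127801122-127831865, minus strand), was listed at 0 in all 3 dormant WT libraries, against 12.03, 23.19 and 21.27 TPM across the growing WT libraries. In dormant KO libraries it was at 4.63, 6.44 and 5.51 TPM, against 13.95, 25.09 and 25.39 TPM across the growing KO libraries. Bub1 was lower in dormant cells of both hosts (limma adjusted p = 0.000398 in WT and 0.0261 in KO hosts), with no overlap in either, and no fold is given against a group at 0. The KO call was lost without dormant KO 1 or 3 or growing KO 2 or 3, and with a pseudocount of 0.1, median-ratio scaling or a replicate block. Plk1, Polo-like kinase 1 (chr7:122159439-122169873, plus strand), stood at 19.54, 34.27 and 0.00 TPM in dormant WT 1, 2 and 3, against 26.52, 43.10 and 31.67 TPM across the growing WT libraries. Here dormant WT 3, the library with the highest sum, was the one without the gene. In KO hosts Plk1 was at 4.96, 1.04 and 10.28 TPM across the dormant and 45.07, 47.85 and 68.98 TPM across the growing libraries, with a difference of -3.39 ± 1.11 (SE) (limma adjusted p = 0.0546, not called, but called in 5 of 15 alternatives). Aurka, the centrosome kinase Aurora A, was listed at 0 in dormant WT 1 and 2 and stood at 74.90 TPM in dormant WT 3, above the 65.27 to 69.22 TPM of growing WT libraries. In KO hosts Aurka stood at 6.87 to 16.65 TPM across the dormant against 66.66 to 107.38 TPM across the growing KO libraries. Mad2l1, the checkpoint protein MAD2, fell by 1.92 ± 0.582 (SE) in KO hosts (limma adjusted p = 0.0395), where the dormant libraries were at 15.51 to 42.45 TPM and the growing ones at 98.56 to 102.67 TPM. The call was kept without dormant KO 2 and lost without any other of the 6 libraries, and it was lost with a pseudocount of 0.1, no filter, median-ratio scaling, quantile normalization and a replicate block, with adjusted p up to 0.146. In dormant WT 3 Mad2l1 was at 95.81 TPM, above all growing WT libraries. Bub1b and Ttk, both kinases of the checkpoint, overlapped between dormant and growing KO libraries, and Ttk reached 1 TPM in no dormant library.

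The anaphase-promoting complex is the ubiquitin ligase that ends mitosis. The 3 genes grouped with it here, for its activator, its E2 enzyme and its substrate securin, are among the most abundant of the 45. Cdc20, its activator (chr4:118432901-118437352, minus strand), was at 161.37, 224.15 and 218.84 TPM across the growing WT libraries and 0.00, 55.37 and 151.83 TPM in dormant WT 1, 2 and 3. In the KO hosts, it was at 287.56, 262.03 and 214.42 TPM across the growing and 19.56, 29.48 and 32.76 TPM across the dormant libraries. The dormant libraries lay below the growing ones in both hosts, but the fit gave -3.29 ± 1.35 (SE) in WT and -3.20 ± 1.35 (SE) in KO hosts, neither of them called (limma adjusted p = 0.163 and 0.130). The WT difference of Cdc20 was -1.11 without dormant WT 1 and -4.74 without dormant WT 3, where it was called (limma adjusted p = 0.0310). In KO hosts Cdc20 was called with a pseudocount of 5, array weights or only the groups compared. Its exons overlap those of Elovl1. Ube2c, the E2 enzyme that works with the complex, was at 56.14, 273.64 and 111.47 TPM across the dormant WT against 482.20 to 625.16 TPM across the growing WT libraries. The KO values of Ube2c were 188.27, 127.27 and 101.74 TPM across the dormant KO against 470.88 to 583.85 TPM across the growing KO libraries. It fell by 2.15 ± 0.450 (SE) in WT and fell by 1.95 ± 0.450 (SE) in KO hosts (limma adjusted p = 0.0139 and 0.00991). Pttg1, securin, which guards the cohesin-cutting enzyme separase, was the most abundant of the 45 genes in every growing library, at 892.34 to 1015.55 TPM in WT and 1096.11 to 1475.26 TPM in KO hosts. It was at 124.75, 279.77 and 578.54 TPM across the dormant WT and 202.28, 319.82 and 384.54 TPM across the dormant KO libraries. Pttg1 fell by 1.80 ± 0.432 (SE) in WT and fell by 2.17 ± 0.432 (SE) in KO hosts (limma adjusted p = 0.0259 and 0.00417). The WT calls of Ube2c and Pttg1 were lost without growing WT 2 or 3, and that of Pttg1 also without growing WT 1. With only the groups compared both WT calls were lost, that of Pttg1 also with no filter and with a replicate block, and with median-ratio scaling the KO call of Ube2c was lost (-1.35, limma adjusted p = 0.0850).

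The 4 genes of the chromosomal passenger complex, which corrects faulty attachments and then moves to the spindle midzone, reached calls in KO hosts for Aurkb and Cdca8. Aurkb, its kinase Aurora B (chr11:69045647-69051664, plus strand), was at 54.28, 44.39 and 39.11 TPM across the growing WT libraries. It was listed at 0.00 and 0.04 TPM in dormant WT 1 and 2 and stood at 67.25 TPM in dormant WT 3, above every growing WT library. The levels in KO hosts were 38.65, 34.75 and 23.46 TPM across the growing and 0.32, 0.36 and 0.06 TPM across the dormant libraries, the lowest share of the growing mean of the 45 genes. It fell by 4.72 ± 1.28 (SE) there (limma adjusted p = 0.0226), a size set by the pseudocount, since it was -6.66 with 0.1 and -2.81 with 5. Aurkb reached 1 TPM in 1 of the 6 dormant libraries and entered the test through its growing libraries. The call was lost when any 1 of the 6 libraries was left out, with adjusted p up to 0.0723 over all alternatives. Cdca8, borealin, which holds the complex together (chr4:124918465-124939311, minus strand), was at 117.43, 129.36 and 100.31 TPM across the growing WT and 35.27, 48.84 and 172.26 TPM across the dormant WT libraries. Dormant WT 3 again lay above the growing range, and the difference of -0.77 ± 0.502 (SE) was not called (limma adjusted p = 0.382). In KO hosts Cdca8 was at 155.92, 181.00 and 122.25 TPM across the growing and 8.53, 9.38 and 6.52 TPM across the dormant libraries, and it fell by 4.07 ± 0.502 (SE) (limma adjusted p = 0.000196). Birc5, survivin (chr11:117849251-117855743, plus strand), was at 539.62, 499.03 and 498.43 TPM across the growing WT and 44.46, 0.00 and 208.79 TPM across the dormant WT libraries. In KO hosts it was at 761.96, 720.25 and 659.43 TPM across the growing and 172.58, 152.56 and 188.03 TPM across the dormant libraries. Although neither host showed overlap, the differences of -4.60 ± 1.37 (SE) in WT and -2.06 ± 1.37 (SE) in KO hosts were not called (limma adjusted p = 0.0624 and 0.346), and the SE is set mostly by the dormant WT libraries. Birc5 was called lower in WT hosts without dormant WT 2 (-2.39, limma adjusted p = 0.00992) and without dormant WT 3 (-6.25, limma adjusted p = 0.00654), and also with a pseudocount of 5, quantile normalization or array weights. Incenp, the scaffold, was under 8 TPM in every library.

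In the centromere and kinetochore group, Cenpa, the histone H3 variant that marks centromeres (chr5:30666777-30674830, plus strand), had the smallest SE of the 45 genes. It was at 461.51, 480.64 and 482.06 TPM across the growing WT and 148.36, 250 and 164.97 TPM across the dormant WT libraries. The KO values of Cenpa were 533.43, 565.55 and 542.47 TPM across the growing KO and 134.38, 122.97 and 102.91 TPM across the dormant KO libraries. It fell by 1.37 ± 0.205 (SE) in WT and fell by 2.19 ± 0.205 (SE) in KO hosts (limma adjusted p = 0.00221 and 3.32e-05). Oip5, which helps to load CENP-A (chr2:119609512-119618469, minus strand), was at 46.32, 36.31 and 62.38 TPM across the growing WT and 0.00, 0.00 and 0.04 TPM across the dormant WT libraries. Its KO levels were 51.08, 18.82 and 49.98 TPM across the growing and 7.78, 21.85 and 8.28 TPM across the dormant libraries, which overlap. Oip5 was lower in dormant cells of WT hosts (limma adjusted p = 0.000160), by an amount set by the pseudocount (-8.72 with 0.1 and -3.38 with 5), while the KO difference of -1.61 ± 0.560 (SE) was not called (limma adjusted p = 0.0682). Its exons overlap those of Nusap1 on the opposite strand, and the use of strand in the counting was not stated. Spc25, of the NDC80 complex that binds microtubules (chr2:69193895-69206194, minus strand), was listed at 0 in dormant WT 1 and 2 and stood at 73.16 TPM in dormant WT 3, against 88.48, 95.61 and 83.98 TPM across the growing WT libraries. In the KO hosts, it was at 116.09, 164.48 and 150.11 TPM across the growing and 24.23, 8.30 and 21.19 TPM across the dormant libraries, with a difference of -3.05 ± 1.30 (SE) that was not called (limma adjusted p = 0.135) but was with a pseudocount of 5, array weights or only the groups compared. The other subunits of that complex had other patterns in the dormant WT libraries: Nuf2 was at 0.00, 0.00 and 26.54 TPM, Ndc80 at 7.63, 34.59 and 2.82 TPM and Spc24 at 30.46, 83.82 and 0.10 TPM in dormant WT 1, 2 and 3. In dormant KO libraries the same 3 genes were at 4.73 to 9.04, 5.47 to 11.43 and 11.71 to 35.14 TPM, each below its growing KO libraries. Cenpe, a kinetochore motor, and Cenpf were highest in dormant WT 3, at 28.01 and 40.69 TPM, above every growing WT library.

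The kinesin motors, which build the spindle and move chromosomes, summed to 179.4, 245.7 and 214.8 TPM across the growing KO and 4.12, 33.5 and 24.3 TPM across the dormant KO libraries, 10.4-fold less on the means and 7.38-fold to 15.0-fold less with 1 dormant KO library left out. In WT hosts their sums were 120.2, 165.3 and 153.4 TPM across the growing and 20.1, 73.8 and 53.2 TPM across the dormant libraries, 2.99-fold less. Kif22, a chromokinesin that binds chromosome arms (chr7:127027729-127042471, minus strand), was at 63.08, 67.98 and 73.70 TPM across the growing WT and 0.00, 0.00 and 15.15 TPM across the dormant WT libraries. The levels in KO hosts were 89.53, 105.48 and 94.55 TPM across the growing and 0.00, 1.56 and 10.92 TPM across the dormant libraries. Kif22 fell by 4.77 ± 1.07 (SE) in WT and fell by 4.96 ± 1.07 (SE) in KO hosts (limma adjusted p = 0.0199 and 0.00677), sizes that depend on the pseudocount (-3.20 and -3.65 with 5), and its WT call was lost without any 1 of the growing WT libraries, with no filter, with array weights and with only the groups compared. Its KO call was lost with a pseudocount of 0.1 (limma adjusted p = 0.0514). Kif2c, a kinesin that takes microtubules apart at the centromere, was at 0.07 TPM or less in all 3 dormant WT and 0.00, 5.29 and 3.16 TPM across the dormant KO libraries, against 6.13 to 14.18 and 15.33 to 33.95 TPM across the growing libraries, and was lower in both hosts (limma adjusted p = 0.0123 and 0.00829). Kif2c reached 1 TPM in only 2 of the 6 dormant libraries, so it entered the test through its growing libraries. The WT call of Kif2c was lost without growing WT 2 or 3 and with array weights. Kif20a, a motor of cytokinesis, fell by 3.21 ± 0.869 (SE) in KO hosts (limma adjusted p = 0.0224), a call kept without dormant KO 3 and lost without any other of the 6 libraries, with a pseudocount of 0.1 and with no filter. Kif23 went the other way in a single library: it stood at 57.40 TPM in dormant WT 2, above the 6.07 to 22.05 TPM of growing WT libraries, but at only 0.33 and 0.04 TPM in dormant WT 1 and 3. Kif11, the motor that pushes spindle poles apart, was at 0.00, 16.32 and 14.23 TPM across the dormant WT against 8.11 to 10.12 TPM across the growing WT libraries. Kif4 stood at 8.94 and 11.46 TPM in dormant WT 1 and 3, above the 3.82 to 6.24 TPM of growing WT libraries, and it was at 1.89 TPM or less in dormant KO libraries.

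Of the spindle assembly and microtubule binding proteins, Nusap1, which bundles spindle microtubules (chr2:119618298-119651244, plus strand), was at 48.08, 46.20 and 44.75 TPM across the growing WT and 14.97, 0.00 and 31.36 TPM across the dormant WT libraries, a difference of -2.56 ± 1.05 (SE) that was not called (limma adjusted p = 0.164). In KO hosts it was at 52.77, 61.70 and 66.44 TPM across the growing and 0.85, 4.67 and 7.40 TPM across the dormant libraries, and it fell by 3.78 ± 1.05 (SE) (limma adjusted p = 0.0259), a call kept without dormant KO 3 and lost without any other of the 6 libraries, and likewise lost with a pseudocount of 0.1 or no filter. Ckap2, a microtubule stabiliser (chr8:22168160-22185819, minus strand), was uneven in WT hosts: it was at 0.83, 0.00 and 81.09 TPM across the dormant WT against 47.79, 50.64 and 29.93 TPM across the growing WT libraries (-3.01 ± 1.33 SE, limma adjusted p = 0.196). Without dormant WT 3 Ckap2 was called lower there (-4.98, limma adjusted p = 0.00171). In KO hosts Ckap2 was at 6.44, 0.37 and 3.35 TPM across the dormant and 39.21, 34.54 and 61.51 TPM across the growing libraries (-3.66 ± 1.33 SE, limma adjusted p = 0.0795). Hmmr, a spindle protein and hyaluronan receptor, was at 0.00, 47.97 and 12.39 TPM across the dormant WT and 1.69, 1.45 and 2.30 TPM across the dormant KO libraries, against 25.66 to 43.82 TPM across the growing KO libraries. It fell by 3.53 ± 1.08 (SE) in KO hosts (limma adjusted p = 0.0408), a call lost when any 1 of the 6 libraries was left out, with adjusted p up to 0.147 over all alternatives. Tpx2, Prc1 and Ckap2l were lower in every dormant KO than in every growing KO library, at 16.9%, 26.3% and 18.3% of the growing mean, and none of them was called.

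Cytokinesis needs the RhoA activator Ect2, the centralspindlin subunit Racgap1 and the actin scaffold Anln. Racgap1 (chr15:99620496-99651656, minus strand) was at 50.66, 28.71 and 60.01 TPM across the growing WT and 0.03, 0.00 and 38.53 TPM across the dormant WT libraries, so dormant WT 3 lay within the growing range (-3.72 ± 1.14 SE, limma adjusted p = 0.0686). Without dormant WT 3 Racgap1 was called lower (-5.48, limma adjusted p = 9.87e-05). Its KO levels were 52.50, 59.98 and 50.32 TPM across the growing and 5.49, 13.55 and 9.51 TPM across the dormant libraries (-2.47 ± 1.14 SE, limma adjusted p = 0.168). Anln (chr9:22332012-22389188, minus strand) was at 36.37, 48.24 and 31.36 TPM across the growing WT and 11.15, 0.00 and 25.42 TPM across the dormant WT libraries. The KO values of Anln were 40.73, 31.23 and 36.72 TPM across the growing KO and 5.63, 1.07 and 4.62 TPM across the dormant KO libraries. It fell by 3.12 ± 0.984 (SE) in KO hosts (limma adjusted p = 0.0462), a call lost when any 1 of the 6 libraries was left out, with adjusted p up to 0.189 over all alternatives. Ect2 was at 0.14, 32.21 and 13.41 TPM across the dormant WT and 2.56 to 2.89 TPM across the dormant KO libraries.

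The last pair, Top2a and Mki67, are the commonest markers of dividing cells. Top2a, which untangles sister chromatids (chr11:98992943-99024189, minus strand), was at 43.63, 33.95 and 47.06 TPM across the growing WT and 48.23, 29.66 and 59.65 TPM across the dormant WT libraries. The groups overlapped, with a difference of 0.10 ± 0.422 (SE) that was not called (limma adjusted p = 0.942). The sign of that difference turned with quantile normalization and without dormant WT 3 or growing WT 2. In KO hosts Top2a was at 51.53, 65.45 and 40.83 TPM across the growing and 9.45, 19.01 and 8.91 TPM across the dormant libraries, and it fell by 2.05 ± 0.422 (SE) (limma adjusted p = 0.00514). Mki67, the gene of the Ki-67 antigen (chr7:135689784-135716361, minus strand), was low for a marker, at 5.41, 3.84 and 6.12 TPM across the growing WT and 4.73, 7.56 and 5.30 TPM across the growing KO libraries. It stood at 0.17, 0.00 and 29.93 TPM in dormant WT 1, 2 and 3, so that dormant WT 3 held more of it than any growing library. In dormant KO libraries it was at 3.44, 2.56 and 1.22 TPM, below the growing KO libraries without overlap. Neither difference was called, at -0.87 ± 1.07 (SE) in WT and -1.05 ± 1.07 (SE) in KO hosts (limma adjusted p = 0.676 and 0.559). Without dormant WT 3 the WT difference of Mki67 was -2.48 and called (limma adjusted p = 0.0122), and without dormant WT 1 or 2 it was -0.12 or -0.01.

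Between hosts, growing KO against growing WT libraries gave 0 of the 45 genes higher and 0 lower, against 0.715% and 0.261% of all tested genes, and 1 of 45 had an unadjusted p under 0.05 in limma, against 7.53% of all tested genes. Of all genes tested in limma, 93 were called higher and 34 lower. Between dormant KO and dormant WT libraries, 2 of 45 genes were higher in KO hosts, Bub1 and Oip5, against 12.9% of all tested genes, and 3 were lower, Cdk1, Cdca8 and Top2a, against 9.39%. Host and batch cannot be told apart in these comparisons. The median difference of the 45 genes between dormant hosts was -0.20, against 0.17 over all tested genes, and its sign turned without dormant WT 3 (0.48), with median-ratio scaling (0.10) and with a pseudocount of 0.1 (0.05). Cdk1 was lower in dormant KO than in dormant WT libraries by the fit (-2.04 ± 0.508 SE, limma adjusted p = 0.0121), a call lost without dormant KO 1, with median-ratio scaling, with array weights and with only the groups compared, with adjusted p up to 0.132. Cdca8 (-2.91 ± 0.502 SE, limma adjusted p = 0.00133) and Top2a (-1.82 ± 0.422 SE, limma adjusted p = 0.00811) were called lower whichever of the 6 dormant libraries was left out, though Top2a was not with only the groups compared (adjusted p = 0.0681 in limma). Bub1 and Oip5, listed at 0 or at 0.04 TPM across the dormant WT libraries, were higher in dormant KO libraries (limma adjusted p = 0.00180 and 0.000655). Without dormant WT 3, 9 of 45 genes were called higher and 4 lower in dormant KO libraries, against 14.2% and 11.7% of all tested genes. The counts were 2 and 8 without dormant WT 1 (17.0% and 11% of all tested genes), and 2 and 7 without dormant WT 2 (13.6% and 13.4%).

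Whether dormancy went with a different change in the 2 hosts was tested by the interaction, the state difference of KO hosts less the state difference of WT hosts. By the limma fit 2 of 45 genes were called higher, against 6.18% of all tested genes, and 2 lower, against 3.91%, which are shares near or under those of all genes. With 1 dormant WT library left out the counts moved. Without dormant WT 1 they were 2 higher and 8 lower (9.27% and 5.73% of all tested genes). They were 2 and 4 without dormant WT 2 (7.11% and 6.45%), and 7 and 2 without dormant WT 3 (7.42% and 5.61%). Cdca8 fell by more in KO hosts (-3.30 ± 0.710 SE, limma adjusted p = 0.0121). Top2a fell in KO hosts and not in WT hosts (-2.14 ± 0.597 SE, limma adjusted p = 0.0423). Oip5 was the reverse, with a smaller fall in KO hosts (3.96 ± 0.792 SE, limma adjusted p = 0.00825), as was Bub1 (limma adjusted p = 0.0395). The calls of Cdca8 and Oip5 were kept whichever of the 12 libraries was left out, but that of Oip5 was lost with a pseudocount of 5 (2.05, adjusted p = 0.0573 in limma) and with a replicate block, with adjusted p up to 0.0653 over all alternatives, against up to 0.0481 for Cdca8. By contrast, those of Bub1 and Top2a were each lost in 9 of 12 such fits. Bub1 lost its call without any 1 of the growing or dormant KO libraries, and Top2a without any 1 of the growing libraries, dormant WT 3, dormant KO 1 or dormant KO 3. The median of the 45 interaction values was -0.37, against 0.16 over all tested genes, and was 0.37 without dormant WT 3.

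**Figure D4:**
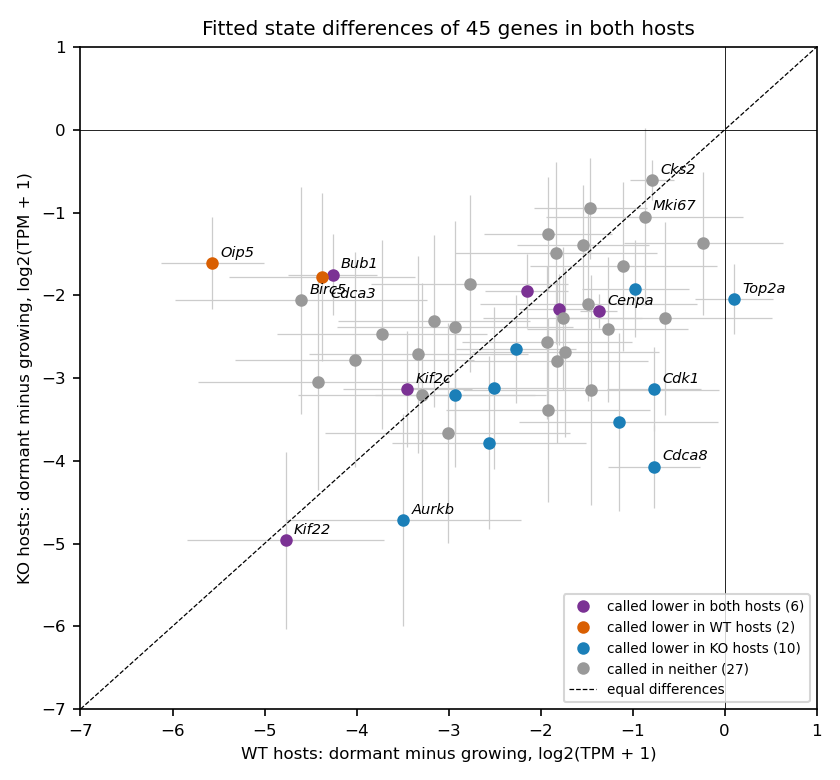
Fitted dormant minus growing difference of each of the 45 genes on the log2(TPM + 1) scale in WT hosts (x axis) and KO hosts (y axis), with SE bars, coloured by call. The 6 genes called in both hosts, 2 called in WT hosts and 10 called in KO hosts all lie below 0 in KO hosts. Bub1 is listed at 0 in dormant WT libraries, so its place on the x axis depends on the pseudocount.

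Other genes of the cycle were read from lists of which no gene is among the 45. Of 72 tested further genes of mitosis, 13 were lower and 0 higher in dormant WT, and 23 lower and 0 higher in dormant KO libraries against growing ones, with medians of -1.50 and -1.85. Of all tested genes 5.67% and 9.48% were lower, and 1.85% and 8.31% higher, in WT and KO hosts. Of 49 tested genes of DNA replication and the E2F programme, 15 were lower and 0 higher in WT and 18 lower and 0 higher in KO hosts, with medians of -2.35 and -2.20. The summed TPM of the replication genes was 3.94-fold less in dormant than in growing KO libraries, beside 4.66-fold for the 45 genes. Cdkn3, a phosphatase that acts on CDK2, was at 45.87, 0.00 and 13.49 TPM across the dormant WT and 88.81, 105.01 and 69.49 TPM across the dormant KO libraries, against 262.3 to 352.16 TPM across the growing libraries of the 2 hosts, and fell by 5.11 ± 1.01 (SE) in WT hosts (limma adjusted p = 0.0107). Smc4, a condensin subunit, was at 135.15, 63.49 and 149.95 TPM across the dormant WT and 32.39, 20.8 and 24.77 TPM across the dormant KO libraries, and was lower in dormant KO than in dormant WT libraries (-2.05 ± 0.329 SE, limma adjusted p = 0.000823), as Top2a was. Chaf1b, of the factor that places histones on new DNA, was at 0.23 TPM or less in all 3 dormant WT and 2.85, 10.35 and 5.81 TPM across the dormant KO libraries, much as Bub1 and Oip5 were.

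Cdk6 and Ccnd1, a kinase and a cyclin of G1, were lower in dormant KO than in dormant WT libraries (-3.02 and -3.06, limma adjusted p = 0.000642 and 0.00190). The interaction was called for Cdk6 (-2.54, limma adjusted p = 0.0310) and not for Ccnd1 (-2.61, limma adjusted p = 0.0589). Cdk6 was at 84.93, 40.70 and 45.18 TPM across the dormant WT against 14.19, 17.47 and 14.88 TPM across the growing WT libraries, and rose by 1.74 ± 0.468 (SE) (limma adjusted p = 0.0424). In dormant KO libraries it was at 5.44, 6.32 and 5.56 TPM, against 8.19, 8.26 and 18.33 TPM across the growing KO libraries (-0.80, limma adjusted p = 0.275). Cyclin D1, Ccnd1, was at 76.85, 22.89 and 90.22 TPM across the dormant WT and 7.62, 2.92 and 7.66 TPM across the dormant KO libraries, against 18.89 to 35.35 TPM across the growing libraries, and fell by 1.81 ± 0.558 (SE) in KO hosts (limma adjusted p = 0.0425). Cdk4 fell by 1.91 ± 0.326 (SE) in KO hosts (limma adjusted p = 0.00162). Of 22 brakes of the cycle, among them Cdk inhibitors, pocket proteins and subunits of DREAM, 3 were lower and 0 higher in WT hosts (E2f4, Lin9 and Rbl1). In KO hosts 1 was lower and 0 higher (Cdkn2d). The shares of all tested genes were the same 5.67% and 9.48% lower, and 1.85% and 8.31% higher, in WT and KO hosts. Of 7 tested genes listed as carcinoma markers, Krt8, Krt18 and Vim were called lower in dormant KO than in growing KO libraries (-1.58, -1.39 and -1.11). Krt19 and Krt7 were called higher (4.51 and 4.48). These genes were at most 14.16 and 2.18 TPM across the growing libraries, so they were little expressed by the growing tumour cells. Of 14 widely expressed genes, 4 were called lower and 0 higher in dormant KO against growing KO libraries, where 9.48% and 8.31% of all tested genes were. Their median was -0.93 and their range from -2.57 (Pgk1) to 0.74, beside a median of -2.38 over the 45 genes.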

How the data were processed

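The authors sorted tumour cells from mouse lungs and took a small aliquot of them per library. They used Cutadapt to trim the reads, STAR to align them to mm10 and RSEM, with GENCODE genes, to estimate levels. The submitters' processing notes name cutadapt 1.18, STAR 2.5.2b and RSEM 1.3.3. As to the kit, TruSeq mRNA stands in the labels and Smart-seq in the methods. The deposited values are TPM for 12 labelled libraries. A further 30 per-sample columns could not be mapped to a label and were not used. TPM keeps no depth, so the error given is the SD or SE over 3 libraries per group, and RSEM splits reads of overlapping or similar genes by an estimate.

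TPM was transformed to log2(TPM + 1). Genes at 1 TPM or more in at least 3 libraries were tested (13002 genes). All 45 members passed, 40 of them with at least 3 dormant libraries at 1 TPM or more, so the other 5 (Foxm1, Ttk, Aurkb, Kif23 and Kif2c) passed through growing libraries. limma 3.58.1 (R 4.3.3, eBayes with a trend) was fitted to all 12 libraries with 1 mean per group, and p-values were adjusted by Benjamini-Hochberg over all tested genes, two-sided. A call needed an adjusted p of at most 0.05 and a difference of at least 1 on the log2 scale, which understates changes at low TPM. The labels do not tie libraries to mice, while the study calls the libraries of a group biological replicates from 3 mice.

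The members and lists were chosen with earlier results of these data known. Full values were printed, per role group and host, for the member with the largest fall and any with a rise, plus Mki67, Top2a, Ccnb1 and Cdk1. From the other lists, at most the 2 largest called changes per direction without overlap could be named. Genes named beyond these rules, among them Rbl1 and the carcinoma and widely expressed genes, were chosen after their values were seen. The limma fit was also run on simulated data with the same spread in every group for a gene. The dormant WT libraries were more uneven than that, so the simulation does not bear on their part in the fit. Also tried were pseudocounts 0.1 and 5, testing without the filter or with a 5 TPM minimum, 2 scalings (median-ratio and quantile), array weights, a fit to only the groups compared, the replicate number as a block, and each library left out.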

Additional observations from a re-analysis of the deposited data

Results flagged for a closer look

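In 4 of the 45 genes the change from growing to dormant tumour cells differed between WT and KO hosts by the interaction test of limma, on the log2(TPM + 1) scale, 2 higher and 2 lower (4.44% each), against 6.18% and 3.91% of all tested genes. The calls of Top2a and Bub1 were each lost in 13 of 20 alternatives. For Cdca8 the value was -3.30 (adjusted p = 0.0121), with all 3 dormant KO libraries between 6.52 and 9.38 TPM and the dormant WT libraries between 35.27 and 172.26 TPM. For Top2a the value was -2.14 (adjusted p = 0.0423), with 8.91 to 19.01 TPM in dormant KO and 29.66 to 59.65 TPM in dormant WT libraries. For Oip5 the value was 3.96 (adjusted p = 0.00825), with 7.78 to 21.85 TPM in dormant KO and at most 0.04 TPM in dormant WT libraries. For Bub1 the value was 2.51 (adjusted p = 0.0395). Bub1 was listed at 0 in the dormant WT libraries, and Oip5 near 0, so both values depend on the pseudocount: that of Oip5 was 7.03 with a pseudocount of 0.1 and 2.05 with 5, where its call was lost (adjusted p = 0.0573). Host and library batch cannot be told apart in these differences. Markers of lung epithelium and stroma moved with the same split, at 44467 to 46606 TPM in dormant KO and 169.7 to 394.7 TPM in dormant WT libraries, and their part in it was not tested.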

How the results depend on the processing

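No call of a member turned in direction under any alternative. In WT hosts the 8 genes called lower (5.67% of all tested genes) became 5 with no filter (1.7%), 4 with only the groups compared (5.78%) and 3 to 26 when 1 library was left out (2.55% to 11.5%). In KO hosts the 16 (9.48%) became 9 with a pseudocount of 0.1 (8.53%), 24 with a pseudocount of 5 (9.05%), 10 with no filter (3.8%), 10 with median-ratio scaling (5.1%), 37 with array weights (16.8%), 33 with only the groups compared (14.4%) and 9 to 13 with 1 library left out (6.73% to 8.7%). The median KO difference was -2.65 with a pseudocount of 0.1, -1.99 with 5, -1.93 with median-ratio scaling, -2.22 with quantile normalization and -2.56 to -2.19 with 1 library left out, and the WT median was -3.05 with a pseudocount of 0.1, -1.53 with 5 and -2.53 to -1.61 with 1 library left out. Median-ratio scaling moved the median of all genes from -0.32 to 0.09 in KO hosts and from 0.17 to 0.50 between dormant hosts, and turned 1080 higher and 1233 lower genes in KO hosts into 1491 and 663, and 1677 higher and 1221 lower genes between dormant hosts into 2289 and 804. Between dormant hosts the 5 calls became 3 with only the groups compared (8.61% higher and 4.31% lower of all tested genes). They became 5 to 13 with 1 library left out (11.5% to 17.0% higher and 7.59% to 13.4% lower), with a median of -0.36 to 0.48. Between growing hosts the count was 0 under each alternative, with a median of 0.18 to 0.28 with 1 library left out. The 4 interaction calls became 2 with a pseudocount of 5 (4.99% and 4.01%), 2 with quantile normalization (4.57% and 3.68%), 2 with array weights (3.65% and 3.11%) and 2 to 10 with 1 library left out. Without dormant WT 1 they were 2 higher and 8 lower (9.27% and 5.73% of all tested genes). Without dormant WT 3 they were 7 higher and 2 lower (7.42% and 5.61%). The interaction median was -0.61 to 0.37 with 1 library left out, 0.12 with median-ratio scaling and 0.18 with a pseudocount of 0.1. Top2a, not called in WT hosts, changed from 0.10 to -0.03 with quantile normalization, -0.12 without dormant WT 3 and -0.04 without growing WT 2. The cause was not tested. Whether same-numbered libraries came from the same mouse was not settled. The correlations of same-numbered libraries lay between -0.0136 and 0.0206, including those between hosts. The dormant KO libraries each matched the growing KO library of their own number best, at 0.0206, 0.0192 and 0.0109. Of the dormant WT libraries only replicate 3 did so. With a replicate block the counts were 7 in WT hosts (2.39% of all tested genes lower), 12 in KO hosts (6.72% lower), 5 between dormant hosts (12.2% higher and 8.71% lower), 0 between growing hosts and 1 for the interaction (3.25% and 1.91%). TPM gives no depth, so a gene listed at 0 cannot be told from one below detection.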

Other observations

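The sums of the role groups are given as values, with no test between groups. On group means of summed TPM, growing over dormant KO libraries was 10.4-fold for kinesin motors (7.38-fold to 15.0-fold with 1 dormant KO library left out), 7.58-fold for spindle assembly proteins and 7.31-fold for cytokinesis, against 3.81-fold for CDK1, its cyclins and their regulators and 3.93-fold for Top2a and Mki67 summed. In WT hosts the same ratios were 2.99, 1.84, 2.83 and 2.04 (3.12, 3.09, 5.25 and 2.99 without dormant WT 3), and for Top2a and Mki67 it was 0.835, and 1.20 without dormant WT 3, so that its direction rests on that library. The 4 subunits of the NDC80 complex had different levels between the dormant WT libraries: dormant WT 3 held the most Nuf2 and Spc25, at 26.54 and 73.16 TPM, and the least Ndc80 and Spc24, at 2.82 and 0.10 TPM.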
